A study of Rattus norvegicus with 6 samples.

Results

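Leukocytes that reside in or pass through the kidney were read here through 42 marker genes. They were 23 of macrophages and monocytes, 2 of neutrophils, 3 carried by leukocytes in general, 12 of T cells and 2 of B cells. The genes were chosen by name, with earlier results of these data known. Their shares beside all named genes are therefore descriptions, and no set test was run. The tissue was renal cortex of male Sprague-Dawley rats of the Crl:CD(SD) stock, bought at 5 weeks of age. One group of 3 rats received sulfone bis(p-chlorophenyl), the diaryl sulfone also called bis(4-chlorophenyl) sulfone, at 250 mg/kg/day for 4 weeks, and the other group of 3 received corn oil, the vehicle (VC). RNA of each rat was hybridised alone to a 1-colour Agilent array, so the design asks which transcripts differ in the cortex after repeated dosing. Probes matched 41 of the 42 genes, and 35 could be tested among 12118 named genes; Ms4a1, the gene of the B cell antigen CD20, had no matched probe and was not analysed.

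Macrophages and dendritic cells form a network around the tubules and glomeruli of a healthy kidney, where they take up debris and immune complexes, and T cells are present in smaller numbers. Macrophages are recognised by receptors for particles, complement and antibody, by the adaptors through which these receptors signal, and by the oxidase that makes superoxide. Neutrophils are few in healthy cortex and carry the calcium-binding pair S100A8 and S100A9, while T cells are defined by the CD3 chains and the kinases that act downstream of them.

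Values are log2 of the array's processed signal minus that array's 75th percentile, so 0 is the signal below which 75% of the probes lie. Each gene is given by the matched probe with the highest mean signal among those that stood well above background throughout at least 1 group. Levels are compared between arrays for 1 probe. Signals of different probes are ranked or added in places, but are not read as relative transcript amounts. A log2 fold change is the treated mean minus the vehicle mean, and its p comes from limma, adjusted by the Benjamini-Hochberg method over all 40643 tested probes with a threshold of 0.05.

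The 6 arrays were alike in quality: 66.1% to 68.2% of probes were well above background, and the correlation between any pair of arrays over the tested probes lay between 0.982 and 0.994. They were not alike in handling. Treated 1 shared a slide and a scan with vehicle 1, 2 and 3 (slide 1), and treated 2 and 3 were on another slide (slide 2). Slide 2 held no vehicle array, so the part of any difference seen on treated 2 and 3 alone cannot be told apart from a difference between slides. The contrast within slide 1, treated 1 against the 3 vehicle arrays, is therefore given beside the results. Proximal tubule markers, which check the label of the tissue, were well above background for 12 of 12 genes.

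No marker gene passed the test. Of the 35 tested, 0 were called lower and 0 higher, and the adjusted p ranged from 0.0957 to 0.909 in limma. Among all tested probes 2 were called lower (0.00492%) and 1 higher (0.00246%). At an unadjusted p under 0.05, 14 of the 35 were lower and 1 was higher, against 11.3% of all named genes lower and 10.1% higher. The lower ones were Adgre1, Aif1, Cd2, Coro1a, Cybb, Fcer1g, Fcgr1a, Fcgr3a, Gpr84, Msr1, Ncf1, Ptprc, Rgs18 and Tyrobp, and the higher one was Mrc1. A set of 4 members (Msr1, Gpr84, Rgs18 and Cd2) entered the test only through the vehicle arrays, a filter that favours lower treated values, so the counts that follow leave them out. Among the 31 members well above background on all 6 arrays, 10 were lower at that level (32.3%), against 10.9% of the named genes that met the same condition.

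Most of the markers lay lower in treated cortex by small amounts. The difference was negative for 25 of those 31 members (80.6%), against 51.9% of named genes above background on all 6 arrays, and its median over them was -0.29. The 3 treated arrays lay below the 3 vehicle arrays without overlap for 7 of the 31 (22.6%), against 16.6% of those named genes. Over all named genes the median difference was -0.01. The SD within groups had a median of 0.28 over the 35 tested members and reached 0.80, in Rgs18. For many genes the spread within groups was thus as large as the difference. The treated group spans both slides, so its spread between rats cannot be told apart from a difference between slides. In a bulk sample, fewer cells of a type and less RNA per cell cannot be told apart.

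**Figure D1:**
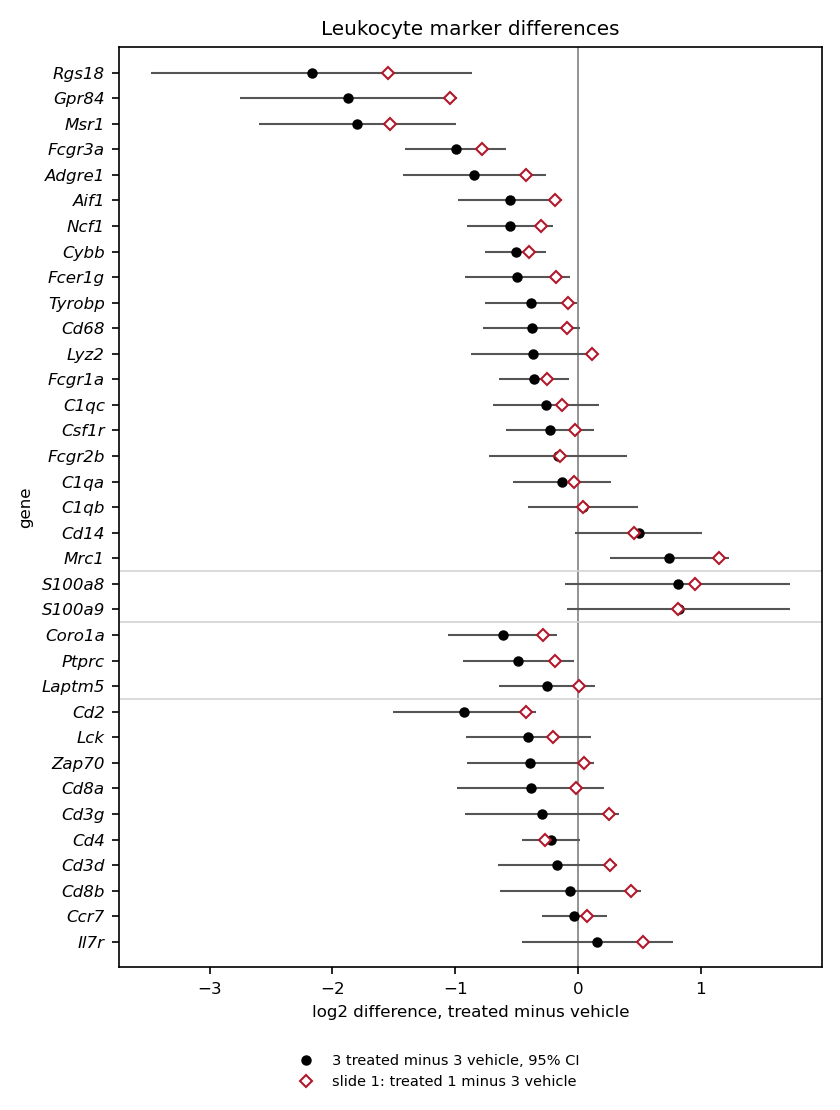
Log2 fold change (treated minus vehicle, x axis) of each of the 35 tested marker genes, grouped by lineage down the page, as filled points with 95% confidence intervals, and as open diamonds the value within slide 1 (treated 1 minus the vehicle mean). Of the points, 29 lie left of 0 and 6 to the right (Mrc1, Cd14, S100a8, S100a9, Il7r and C1qb), and the slide 1 values of the T cell genes lie around 0.

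The 3 treated arrays did not move alike. Treated 2 lay below all 3 vehicle arrays for 24 of the 31 members above background on all 6 arrays (77.4%), where 33.5% of the named genes above background on all 6 did so. Treated 3 did so for 21 members (67.7%), against 38.2% of those named genes, and treated 1 for 8 (25.8%), against 38.4%. Treated 1 had the highest value of the treated group for 25 members (80.6%; 35.0% of those named genes). Vehicle 2 was the lowest vehicle array for 26 members (83.9%; 27.8% of those named genes), so part of the spread in the vehicle group was shared by many members too. The median deviation of the 31 members from their vehicle means was -0.032, -0.49 and -0.49 on treated 1, 2 and 3, against 0.13, -0.21 and 0.069 on vehicle 1, 2 and 3. With slide as a block, which leaves the contrast within slide 1, 18 of the 31 were negative (58.1%; 56.8% of those named genes), and 2, Cybb and Fcgr3a, were lower at an unadjusted p under 0.05 (6.45%; 7.1% of those named genes). Both shares lay near the background.

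**Figure D2:**
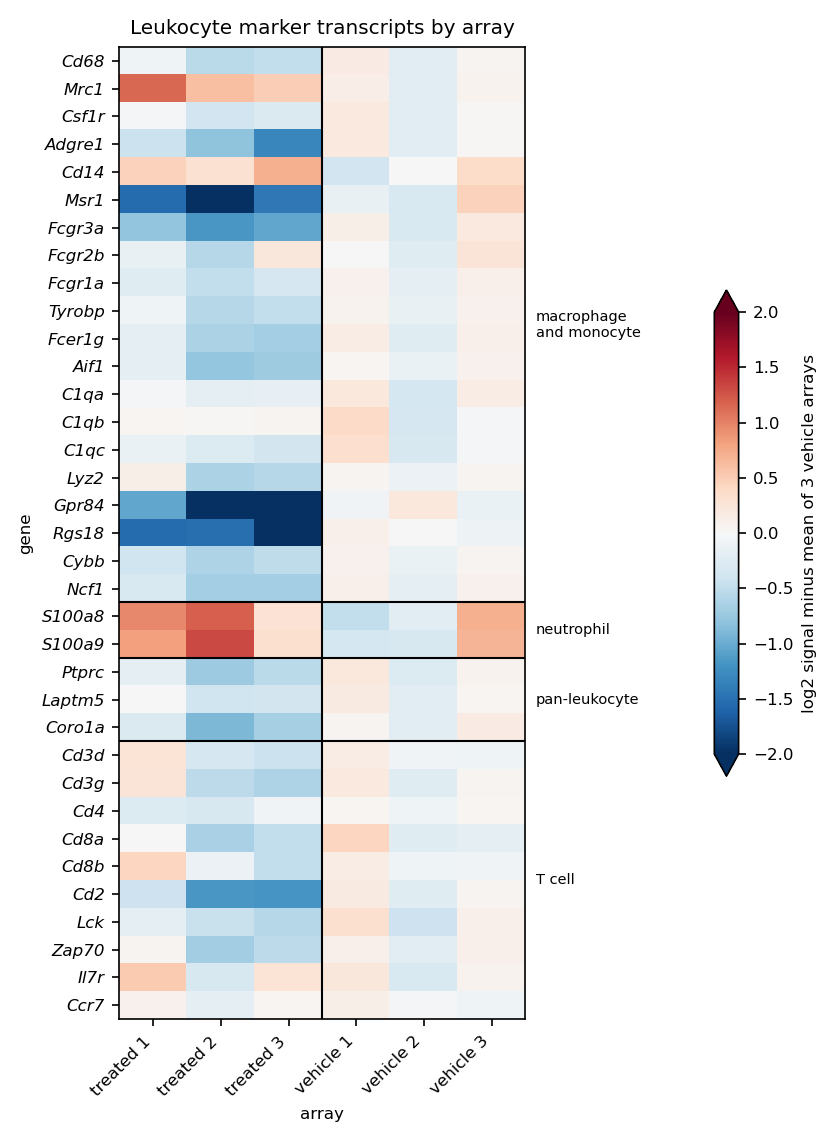
Deviation of each tested marker gene from its vehicle mean (log2 units, colour scale ending at -2 and 2) on treated 1 to 3, then vehicle 1 to 3, grouped by lineage. Treated 2 and 3 are mostly below the vehicle mean, whereas treated 1 is close to it for many genes and vehicle 2 is often the lowest vehicle array.

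Without treated 1, 8 of the 31 members were called lower in limma (25.8%) and 0 higher, against 4.94% and 4.07% of the named genes above background on all 6 arrays. The 8 were Adgre1, Fcgr3a, Tyrobp, Aif1, Lyz2, Cybb, Ncf1 and Coro1a, with adjusted p between 0.0204 and 0.0436 in limma. Msr1, Gpr84 and Cd2 were called lower as well, with adjusted p of 0.0473, 0.00889 and 0.0196. These genes entered only through the vehicle arrays, a filter that favours lower treated values. The comparison without treated 1 sets 2 treated arrays of slide 2 against 3 vehicle arrays of slide 1, so treatment and slide cannot be told apart in it.

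Among the macrophage and monocyte genes, 20 of 23 were tested and 0 passed the test. Of the 17 above background on all 6 arrays, 14 lay lower in treated cortex, with a median difference of -0.36 over all 3 treated rats and -0.13 within slide 1. Fcgr3a had the lowest adjusted p of the 35 members. The gene encodes CD16, the low-affinity activating receptor for immunoglobulin G. Its values were -0.26, -0.64 and -0.51 on treated 1, 2 and 3, against 0.64, 0.22 and 0.71 on vehicle 1, 2 and 3. Every treated value lay under every vehicle value. The means were -0.47 ± 0.20 in treated and 0.53 ± 0.27 in vehicle cortex (SD, n = 3 each), a log2 fold change of -0.99 (SE 0.17, 95% interval -1.41 to -0.58, adjusted p = 0.0957 in limma), and -0.78 within slide 1.

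The other Fc receptors differed less. Fcgr1a, the high-affinity receptor CD64, was at 1.54, 1.30 and 1.45 on the treated arrays, against 1.88, 1.60 and 1.89 on the vehicle arrays. The groups did not overlap, but by a narrow margin: the log2 fold change was -0.36 (SE 0.12, adjusted p = 0.185 in limma). Fcgr2b, the inhibitory member of the family, differed by -0.16 (SE 0.23, 95% interval -0.72 to 0.40), within the spread of both groups. The adaptors that Fc and related receptors signal through were lower at an unadjusted p under 0.05 without passing the adjusted test. Fcer1g, the common Fc receptor gamma chain, differed by -0.49 (SE 0.18, adjusted p = 0.206), and Tyrobp, which encodes DAP12, by -0.38 (SE 0.15, adjusted p = 0.237), both in limma. Within slide 1 the differences were -0.18 for Fcer1g and -0.08 for Tyrobp, and treated 1 lay inside the vehicle range for both.

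The phagocyte NADPH oxidase makes superoxide for the killing of microbes, and both of its members here lay lower on all 3 treated arrays. Cybb, the catalytic subunit gp91phox, was at -3.30, -3.53 and -3.41 on the treated arrays, against -2.82, -3.04 and -2.85 on the vehicle arrays. This gene had little spread: the means were -3.41 ± 0.11 and -2.90 ± 0.12 (SD, n = 3 each, treated and vehicle), a log2 fold change of -0.51 (SE 0.10, 95% interval -0.75 to -0.26, adjusted p = 0.111 in limma), and -0.39 within slide 1. With normexp background correction it was -0.26. Ncf1, the cytosolic organiser subunit p47phox, was at 0.79, 0.42 and 0.42 on the treated arrays, against 1.20, 0.91 and 1.18 on the vehicle arrays. Its log2 fold change was -0.55 (SE 0.14, adjusted p = 0.144 in limma), and -0.30 within slide 1. Cyba and Ncf4, oxidase genes outside the member list, had overlapping groups. They differed by -0.09 (SE 0.12) and -0.19 (SE 0.13), and by -0.31 and -0.04 within slide 1. The cells that gave the Cyba signal were not tested.

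Scavenger receptors bind modified lipoproteins, glycans and debris, and they did not point one way. Msr1, the class A scavenger receptor, was dim, with -5.11, -6.01 and -5.00 on the treated arrays, 2 of them well above background, against -3.72, -3.89 and -3.12 on the vehicle arrays. All treated values lay more than 1 log2 unit under all vehicle values, and the log2 fold change was -1.80 (SE 0.33, 95% interval -2.60 to -0.995, adjusted p = 0.0991 in limma), with -1.53 within slide 1. With normexp it was -0.64. Mrc1, the mannose receptor CD206 of tissue macrophages and some endothelia, lay the other way. It was at -1.40, -1.95 and -2.06 on the treated arrays, against -2.42, -2.76 and -2.47 on the vehicle arrays, again without overlap. The log2 fold change was 0.75 (SE 0.20, 95% interval 0.26 to 1.23, adjusted p = 0.148 in limma), and 1.15 within slide 1, the highest treated value being that of treated 1. Mrc1 was the one tested member higher without overlap, where 14.0% of the named genes above background on all 6 arrays were. The endothelial marker list had a median difference of 0.08 over 12 tested genes of 15, and its part in the Mrc1 value was not tested. Cd68, the lysosomal macrosialin, differed by -0.38 (SE 0.16) with overlapping groups, and by -0.09 within slide 1.

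Adgre1, the surface receptor F4/80 that marks resident kidney macrophages in the mouse, was at -0.69, -1.08 and -1.57 on the treated arrays, against -0.07, -0.48 and -0.25 on the vehicle arrays. The groups were apart, and the log2 fold change was -0.85 (SE 0.24, adjusted p = 0.160 in limma), with -0.42 within slide 1. Csf1r, the receptor for the growth factor on which macrophages depend, differed by -0.23 (SE 0.15) and by -0.02 within slide 1. Cd14, the lipopolysaccharide co-receptor, lay higher in 2 of 3 treated rats than in all vehicle rats, with -0.08, -0.23 and 0.18 on the treated arrays against -0.92, -0.53 and -0.17 on the vehicle arrays. Its log2 fold change of 0.50 (SE 0.21, adjusted p = 0.256 in limma) did not pass the test.

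Aif1, the actin-binding protein IBA1, was at 3.09, 2.51 and 2.56 on the treated arrays, against 3.32, 3.15 and 3.37 on the vehicle arrays. The groups did not overlap, though treated 1 lay within 0.1 of vehicle 2, and the log2 fold change was -0.56 (SE 0.17, adjusted p = 0.178 in limma) and -0.19 within slide 1. Lyz2, the lysozyme of myeloid cells, was the macrophage gene whose slide 1 value had the opposite sign. It was at 6.45, 5.70 and 5.77 on the treated arrays, against 6.39, 6.23 and 6.39 on the vehicle arrays, so the difference of -0.36 (SE 0.21, adjusted p = 0.364 in limma) came from treated 2 and 3, and the value within slide 1 was 0.11.

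The 3 chains of C1q, the recognition unit of the classical complement pathway made mainly by macrophages, stayed near the vehicle level. C1qb was at 3.38, 3.37 and 3.39 on the treated arrays, against 3.73, 3.00 and 3.29 on the vehicle arrays, a difference of 0.04 (SE 0.18, 95% interval -0.41 to 0.49). The treated values were almost equal and lay inside the vehicle range. C1qa differed by -0.13 (SE 0.16) and C1qc by -0.26 (SE 0.18), neither past an unadjusted p of 0.05. The difference between the C1q genes and the Fc receptor or oxidase genes was not tested.

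A pair of signalling genes was not well above background on any treated array, while all 3 vehicle arrays were. Gpr84 is a receptor for medium-chain fatty acids on activated myeloid cells, and Rgs18 a regulator of G protein signalling in platelets and myeloid cells. Both entered the test only through the vehicle arrays, a filter that favours lower treated values. Set against a floor, treated cortex was 1.44-fold lower for Gpr84 and 2.21-fold lower for Rgs18. The floor on each treated array was the higher of the probe's own signal and the lowest signal counted as well above background. It is no detection limit, so these ratios are not bounds. On treated 2 a dim Cd4 probe at -5.21 was not counted as well above background, while Btk at -5.46 was. For Gpr84 the normalised values were -6.10, -7.51 and -7.17 on the treated arrays, against -5.12, -4.85 and -5.20 on the vehicle arrays (adjusted p = 0.108 in limma). For Rgs18 they were -5.99, -5.94 and -7.91 on the treated arrays, against -4.34, -4.44 and -4.54 on the vehicle arrays (adjusted p = 0.137 in limma). The ratios hold for the processed signal alone. With normexp, a background correction that adds an offset to every signal, the log2 fold changes were -0.29 for Gpr84 and -0.55 for Rgs18, smaller than the ratios. Platelet and megakaryocyte markers had a median difference of 0.21 over 6 tested genes of 13, and their part in the Rgs18 value was not tested. Of the remaining macrophage members, Marco was well above background on no array and Itgam, which encodes CD11b, on 2 treated and 2 vehicle arrays. Of 3 probes for Cd163, 1 was well above background on 1 vehicle array, another on 1 treated array and the remaining one on none, so none of the 3 genes was tested.

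**Figure D3:**
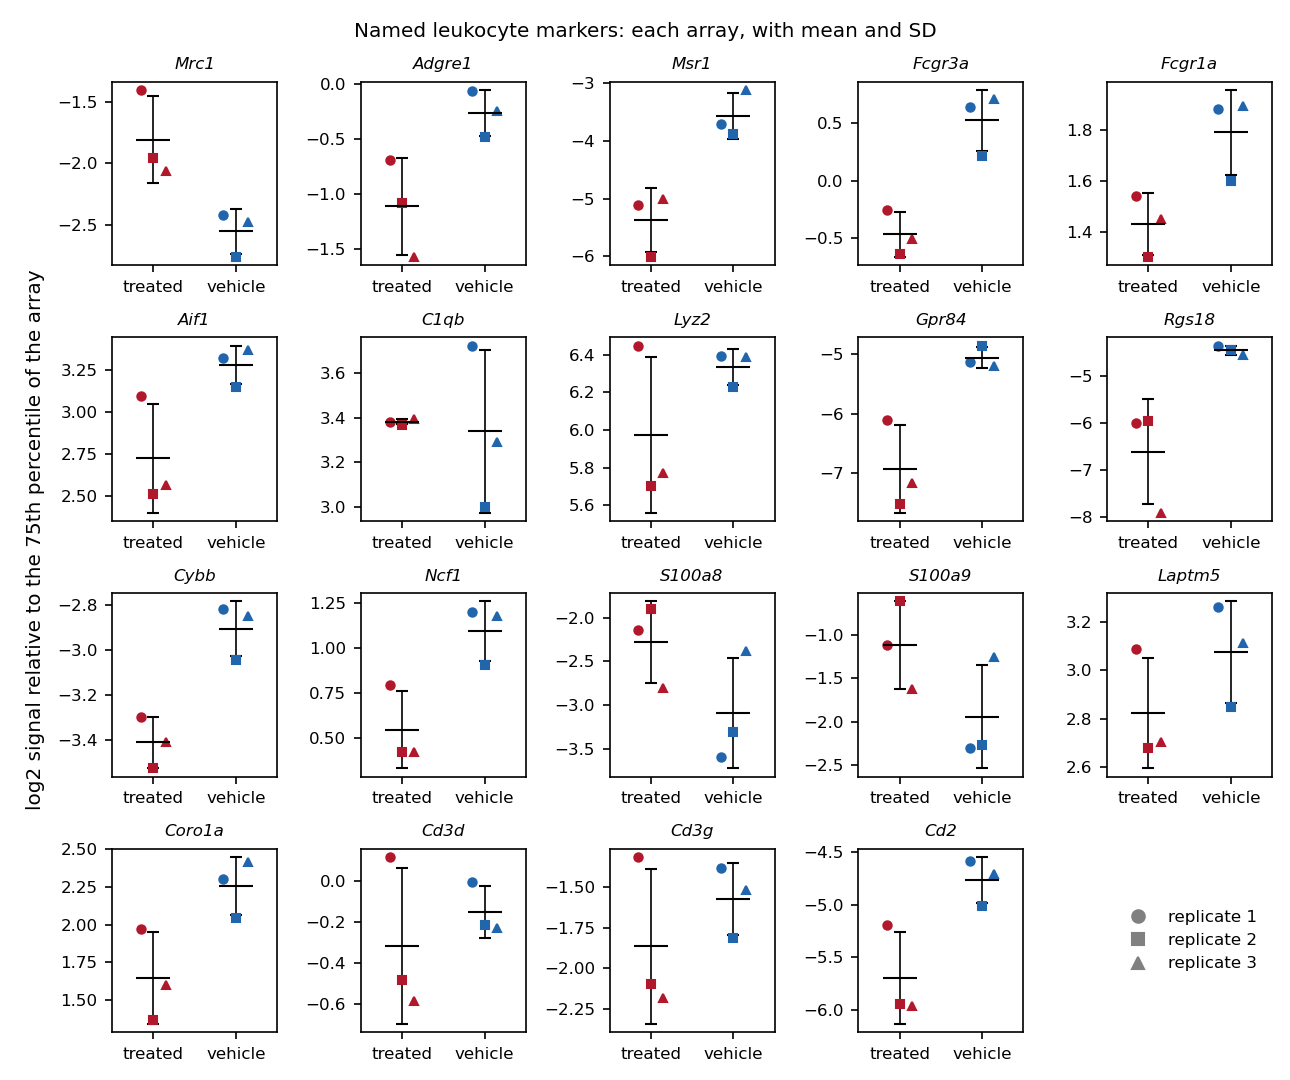
Normalised log2 values of the member genes named with their array values, treated rats left of vehicle rats in each panel, 1 symbol per array, with a bar at the group mean and whiskers of 1 SD; the y axes differ between panels. Fcgr3a, Cybb, Ncf1, Msr1 and Adgre1 are lower on all 3 treated arrays, Mrc1 is higher on all 3, and C1qb overlaps.

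The upstream sequences of Fcgr3a and Cybb, which lay lower in treated cortex, and of Mrc1, which lay higher, are shown because such myeloid genes may hold a PU box, the core GAGGAA bound by PU.1, an ETS factor needed for macrophage development. The 250 bases upstream of the start in RefSeq's GRCr8 annotation are given 5′ to 3′ on the gene's strand, with matches to GAGGAA or its reverse complement TTCCTC in capitals. They lie at chr13:85782386-85782635 (plus strand, Fcgr3a), chrX:16065066-16065315 (minus strand, Cybb) and chr17:82157475-82157724 (plus strand, Mrc1).
Fcgr3a: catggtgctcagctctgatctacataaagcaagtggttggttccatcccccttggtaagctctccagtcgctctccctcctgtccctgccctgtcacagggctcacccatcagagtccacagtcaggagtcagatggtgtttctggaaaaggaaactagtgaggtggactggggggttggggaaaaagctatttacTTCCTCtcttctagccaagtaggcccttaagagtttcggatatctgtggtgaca
Cybb: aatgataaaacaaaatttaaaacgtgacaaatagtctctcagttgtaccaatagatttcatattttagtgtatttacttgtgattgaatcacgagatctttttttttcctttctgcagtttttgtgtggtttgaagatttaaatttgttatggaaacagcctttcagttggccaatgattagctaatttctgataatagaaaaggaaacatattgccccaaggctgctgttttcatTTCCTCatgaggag
Mrc1: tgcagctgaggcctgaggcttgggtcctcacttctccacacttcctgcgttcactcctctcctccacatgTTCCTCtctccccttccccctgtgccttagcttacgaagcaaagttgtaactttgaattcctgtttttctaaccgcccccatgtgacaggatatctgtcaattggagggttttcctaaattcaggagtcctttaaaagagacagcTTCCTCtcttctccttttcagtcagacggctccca

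All 3 windows held the 6 letters, on the strand opposite to the gene, and Mrc1 held them at 2 places. The match was thus shared by genes that lay on opposite sides of 0. A window was available for 29 of the 42 members, and 19 of these (65.5%) held the letters on either strand, against 7812 of 33469 windows of the same length (23.3%). By lineage, the letters stood in 12 of 16 macrophage windows and in 4 of 9 T cell windows. A match of 6 letters is a description of the sequence and shows neither a site nor binding.

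Both neutrophil members were tested, and both had higher means in treated cortex than in vehicle cortex, without passing the test. S100a8 was at -2.14, -1.90 and -2.80 on the treated arrays, against -3.59, -3.31 and -2.39 on the vehicle arrays. S100a9 was at -1.12, -0.62 and -1.63 on the treated arrays, against -2.30, -2.27 and -1.26 on the vehicle arrays. The genes encode the subunits of calprotectin, and in both of them treated 1 and 2 lay above every vehicle array while treated 3 lay below vehicle 3. The log2 fold changes were 0.81 (SE 0.37, 95% interval -0.10 to 1.73) for S100a8 and 0.82 (SE 0.37, 95% interval -0.09 to 1.73) for S100a9, with adjusted p of 0.278 and 0.272 in limma. With normexp that of S100a8 was 0.51.

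The pan-leukocyte members were 3, all tested and all lower in the treated mean. Coro1a, an actin regulator of blood cells, was at 1.97, 1.37 and 1.60 on the treated arrays, against 2.31, 2.05 and 2.42 on the vehicle arrays, without overlap. Its log2 fold change was -0.61 (SE 0.18, adjusted p = 0.170 in limma), and -0.28 within slide 1. Laptm5, a lysosomal membrane protein of blood cells, was at 3.09, 2.68 and 2.70 on the treated arrays, against 3.26, 2.85 and 3.11 on the vehicle arrays. Treated 1 lay inside the vehicle range, the difference was -0.25 (SE 0.16, adjusted p = 0.407 in limma), and within slide 1 it was 0.013. Ptprc, which encodes the leukocyte common antigen CD45, differed by -0.49 (SE 0.19, adjusted p = 0.223 in limma) and by -0.19 within slide 1.

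Of the 12 T cell genes 10 were tested and 0 passed the test. Of the 9 above background on all 6 arrays, 8 had lower means in treated cortex, with a median difference of -0.22, and within slide 1 the median was 0.078 and 3 of 9 were negative. Treated 2 lay below all vehicle arrays for 9 of 9 genes and treated 3 for 6, whereas treated 1 lay below them for 1 gene and above them for 4, where 27.5% of named genes lay above. With normexp the median over the 10 tested genes was -0.086, against -0.26. The CD3 chains, which carry the signal of the T cell receptor, show the pattern. Cd3d was at 0.12, -0.48 and -0.59 on the treated arrays, against -0.0033, -0.22 and -0.23 on the vehicle arrays. Cd3g was at -1.32, -2.10 and -2.18 on the treated arrays, against -1.38, -1.82 and -1.52 on the vehicle arrays. For both genes treated 1 lay above, and treated 2 and 3 below, every vehicle array, so the mean differences of -0.17 (SE 0.20) and -0.29 (SE 0.26) were small beside the spread among the treated arrays.

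Cd2, an adhesion receptor of T and natural killer cells, entered the test only through the vehicle arrays. It was at -5.19, -5.94 and -5.96 on the treated arrays, with treated 1 alone well above background, against -4.58, -5.01 and -4.71 on the vehicle arrays. The treated values near background make the size of its difference uncertain: the log2 fold change was -0.93 (SE 0.24, adjusted p = 0.144 in limma), but -0.23 with normexp and -0.42 within slide 1. The coreceptors Cd4, Cd8a and Cd8b, the kinases Lck and Zap70, the interleukin 7 receptor gene Il7r and the lymph node homing receptor gene Ccr7 differed by between -0.40 (Lck) and 0.16 (Il7r), none at an unadjusted p under 0.05. Cd3e and Cd5, a chain of CD3 and a surface brake on T cell signalling, were well above background on 0 treated and 2 vehicle arrays each and were not tested.

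No B cell member could be tested. Cd79b, a signalling chain of the B cell receptor, was at -5.25, -4.66 and -5.72 on the treated arrays, against -4.71, -5.63 and -4.95 on the vehicle arrays. The groups overlapped, and the probe was well above background on 1 treated and 2 vehicle arrays.

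**Figure D4:**
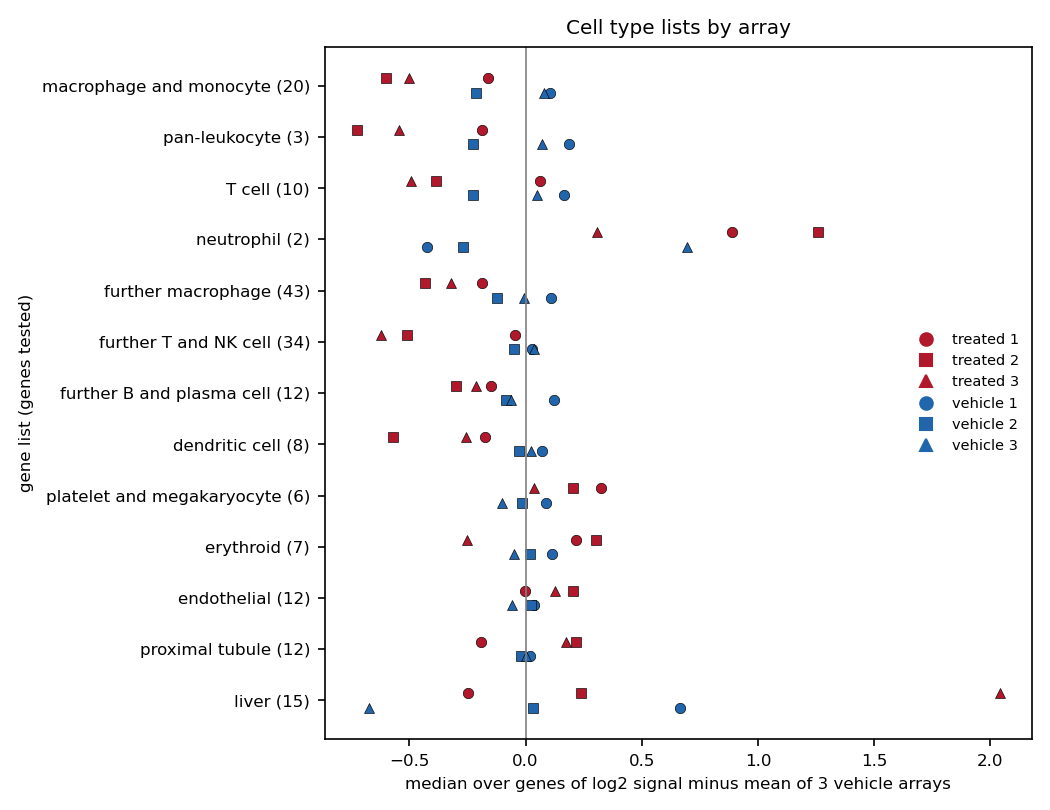
Median deviation from the vehicle mean (log2 units, x axis) over the tested genes of each list (rows, genes tested in brackets), with treated arrays in red above vehicle arrays in blue. The macrophage, pan-leukocyte and T cell lists are lowest on treated 2 and 3, the 2 neutrophil genes are high on treated 1 and 2, and the proximal tubule list is above the vehicle mean on treated 2 and 3.

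A larger set of genes of the same cell types, listed apart from the members, was also chosen with earlier results of these data known. It was read in the same fit, and 0 of its genes passed the adjusted test. Counts are again over genes above background on all 6 arrays, and lower or higher means at an unadjusted p under 0.05. Of 54 further macrophage genes 38 met this condition, with a median difference of -0.26 over all treated rats and -0.15 within slide 1, and 12 were lower and 1 higher. Of 46 further T and natural killer cell genes 30 did, with a median of -0.33 and of -0.062 within slide 1, 6 being lower and 1 higher. The 11 of 24 further B and plasma cell genes had a median of -0.23, with 4 lower and 0 higher, and the 8 of 11 dendritic cell genes a median of -0.27, with 4 lower and 0 higher. The 7 of 16 further neutrophil genes had a median of -0.29, with 1 lower and 1 higher, so that list's median lay on the other side of 0 from S100a8 and S100a9. The 3 of 11 mast cell genes had a median of -0.21, with 1 lower and 0 higher. Among the named genes that met the condition, 10.9% were lower.

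Some of these further genes stood clear of the vehicle rats on every treated array. Cd83, a surface protein of mature dendritic cells and activated lymphocytes, was at -0.65, -1.10 and -1.10 on the treated arrays, against 0.10, 0.08 and -0.06 on the vehicle arrays. Its log2 fold change was -0.99 (SE 0.15, adjusted p = 0.0837 in limma), and -0.69 within slide 1. Clec4a, an inhibitory lectin receptor of myeloid cells, was at -3.37, -3.80 and -3.65 on the treated arrays, against -2.57, -2.81 and -2.72 on the vehicle arrays. The groups were more than 0.5 log2 units apart, at a mean difference of -0.91 (SE 0.13, adjusted p = 0.0839 in limma).

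Tlr2, the toll-like receptor for bacterial lipoproteins, was at -1.02, -1.72 and -1.61 on the treated arrays, against -0.57, -0.38 and -0.25 on the vehicle arrays. Its log2 fold change was -1.05 (SE 0.20, adjusted p = 0.108 in limma), and that of C5ar1, the receptor for complement fragment C5a, was -0.57 (SE 0.11, adjusted p = 0.108). Csf2ra, the alpha chain of the granulocyte-macrophage colony-stimulating factor receptor, lay the other way. It was at 2.72, 2.73 and 2.72 on the treated arrays, against 2.31, 2.27 and 2.38 on the vehicle arrays, at a mean difference of 0.40 (SE 0.07, adjusted p = 0.0957 in limma) and the same value within slide 1.

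Of the 30 T and natural killer cell genes of this larger set above background on all 6 arrays, 8 were lower without overlap. Among the named genes that met this condition, 16.6% were lower without overlap. Those with an unadjusted p under 0.01 were Gimap4 and Gimap5, GTPases of lymphocyte survival, with -0.67 (SE 0.11) and -0.64 (SE 0.12). Their values within slide 1 were -0.55 and -0.54, so unlike the CD3 chains they were lower on treated 1 as well. Satb1, a chromatin organiser of T cells, was higher without overlap, by 0.30 (SE 0.08). By the same rule the B cell transcription factor genes Pax5, Spib and Pou2af1 are named, which differed by -0.53 (SE 0.11), -0.48 (SE 0.12) and -0.40 (SE 0.08), with adjusted p between 0.108 and 0.139 in limma, while Cd79b itself was too dim to test.

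The summed linear signal of a list, relative to each array's 75th percentile, depends most on its brightest probes. Over the tested members it was 153.9, 104.4 and 108.3 on treated 1, 2 and 3, against 163, 135.6 and 158.5 on vehicle 1, 2 and 3, of which Lyz2 alone gave 87.3, 52.1 and 54.6 on the treated and 84.0, 74.8 and 83.8 on the vehicle arrays. Over all tested further leukocyte genes it was 319.2, 333.3 and 340.7 on the treated arrays, against 365.4, 373.4 and 356.5 on the vehicle arrays. Most of this sum on every array came from the brightest of these genes, Cyba, and the next brightest was Tbx21. Treated 1 was lowest for the sum and for Cyba. Whether the Cyba signal came from leukocytes was not tested. The log2 values of Cyba were 7.44, 7.72 and 7.82 on the treated arrays, against 7.72, 7.82 and 7.71 on the vehicle arrays. By contrast, the median deviation of the further genes was -0.13, -0.47 and -0.41 on treated 1, 2 and 3. The summed signal of the 12 proximal tubule markers was 1742, 2104 and 2115 on the treated arrays, against 1828, 1825 and 1874 on the vehicle arrays. The sum over all named genes was also higher on treated 2 and 3, at 107213, 116819 and 116472 on the treated arrays, against 107212, 108169 and 107895 on the vehicle arrays. The part of tissue composition and of the scaling in the leukocyte values was not tested. The endothelial sum lay between 83.9 and 100.1 on treated arrays, against 72.3 to 83.8 on vehicle arrays. Liver transcripts, 15 of 15 tested, had a median difference of 0.55, with deviations of -0.25, 0.24 and 2.04 on the treated arrays against 0.67, 0.03 and -0.67 on the vehicle arrays, with treated 3 far above the other arrays.

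Of the members, 16 had several tested probes, and the probes of 0 genes lay on opposite sides of 0. The largest gap between probes of a gene was 0.76, in Cd4, where the brightest probe gave -0.22 and a dim one -0.98. That dim probe was well above background on 0 treated and 3 vehicle arrays. The second probe of Ncf1 gave -0.74 (SE 0.13) and that of Fcer1g -0.62 (SE 0.15), both further from 0 than the probe used. Other second probes lay nearer to 0, such as those of Lyz2 (-0.25), Csf1r (-0.14) and Cd14 (0.31).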

How the data were processed

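Per the labels' protocols, Cy3-labelled cRNA of each rat was hybridised to 1 array, 3 per group. Per the file headers, the deposited spot intensity values come from Agilent Feature Extraction 10.7.1.1 (10.7 in the submitters' processing notes), whose processed signal is linear and background-subtracted. The authors' deposited series table holds the same intensity values divided by each array's 75th percentile (correlation of log2 values at least 0.999999); its column medians were 0.109, 0.105 and 0.105 for treated and 0.110, 0.108 and 0.109 for vehicle 1 to 3, and it states neither scale nor centring.

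From these files, the log2 of each processed signal over its array's 75th percentile (linear signal 1101, 910.3 and 917 on treated 1 to 3, 1012, 1042 and 1034 on vehicle 1 to 3) was computed over 61537 non-control probes. Probes with an outlier flag (11) were left out and 0 were saturated. A probe was tested if well above background on all 3 arrays of a group (40643). Accessions matched RefSeq (GRCr8) symbols for 28206 probes; 33331 had none. limma 3.58.1 in R 4.3.3 (lmFit, eBayes, two-sided; tested on simulated data) used the 6 arrays with Benjamini-Hochberg adjustment. Alternatives were background correction, scaling, filter, variance model, probe averaging, slide, replicate number and leaving out each array. Given by array were members whose groups did not overlap or whose unadjusted p was under 0.01, the 2 brightest members per lineage, and the neutrophil and B cell members; Cd14, named beside them, was chosen after its values were seen, as were the second probes. Of the further genes, at most 4 per list with unadjusted p under 0.01 and no overlap were named. The members and lists were chosen with earlier results of these data known. The number of arrays limits the precision.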

Additional observations from a re-analysis of the deposited data

How the results depend on the processing

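Results were recomputed under 18 alternatives. With slide as a fixed block the count of members lower at an unadjusted p under 0.05 was 4, with slide 1 alone 5 and with slide as a random block 9 (correlation 0.37), against 14. With the fixed block or slide 1 alone, the median difference was -0.16 for macrophage, 0.063 for T cell and -0.19 for pan-leukocyte genes, and the sign turned for Lyz2 (0.11), Laptm5 (0.013), Cd3d (0.27) and Cd3g (0.26); Cd3d was also 0.022 with the random block. Leaving out each array in turn, members called lower ranged from 0 to 11 and further leukocyte genes called lower from 0 to 29. The high values were without treated 1, where treatment and slide coincide and 5.35% of named genes were called lower. The count at an unadjusted p under 0.05 ranged from 8 to 20 (9 without treated 2, 9 without vehicle 1, 8 without vehicle 3, 20 without treated 1). Without treated 1, 16.5% of named genes were lower at that level. For the other arrays left out, and for the replicate block below, the share of named genes was not computed. The median ranged from -0.55 to -0.29 for macrophage, -0.45 to -0.17 for T cell and -0.64 to -0.37 for pan-leukocyte genes. C1qb ranged from -0.13 (without vehicle 2) to 0.24. Deviations of rats with the same replicate number had correlations of -0.21, 0.01 and -0.16, and that of treated 1 with vehicle 3 was 0.22. With 3 arrays per group and the treated arrays on 2 slides, these values cannot tell whether the numbers pair samples. With the replicate block 0 members were called lower and 16 were lower at an unadjusted p under 0.05 in limma. Over all probes, calls were 1 higher and 2 lower; they were 97 and 40 with normexp (run on the median spot signal), 109 and 47 with a trended robust variance, and 1467 and 2768 without treated 1. Under normexp and under the trended variance 0 members were called. Normexp moved some values by over 1.5 times: Gpr84 to -0.29 (from -1.87), Rgs18 to -0.55 (from -2.17), Msr1 to -0.64 (from -1.80), Cd2 to -0.23 (from -0.93), Cybb to -0.26 (from -0.51), S100a8 to 0.51 (from 0.81) and the T cell median to -0.086 (from -0.26). The cause of these shifts was not tested. Averaging the probes of a gene gave no test. Members near background, such as Gpr84 and Rgs18, are limited by signal over background, and 3 arrays per group with slide and treatment mixed limit every other value.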
